A study of Mus musculus with 6 samples.

Results

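Peaks of chromatin immunoprecipitation (ChIP) at the ends of protein-coding genes are described here, in mouse adipose tissue carrying Flag-tagged OTUD3. A peak belonged where its summit lay no more than 1 kb from the first or the last annotated base of such a gene. All 3 deposited peak lists were used. Each distinct interval was reduced to its summit with the lowest p, and chromosomes 1 to 19 were kept. In all, 1387 of 31709 summits met the rule: replicate 1 gave 714 of its 11787 summits, replicate 3 gave 268 of 6504 and replicate 4 gave 405 of 13418. The gene table held 20665 protein-coding genes on these chromosomes.

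Mice received AAV2-Otud3-Flag, an adeno-associated virus carrying Otud3 with a Flag tag, by i.p. injection. Epididymal adipose tissue was taken at week 4, and 3 libraries numbered 1, 3 and 4 were made with an antibody against Flag. Their 3 input libraries were not analysed here. The labels call the material both adipocyte and adipose tissue, name no promoter that drives the transgene, and do not tie the libraries to animals, so the spread between them may be technical. Peak lists carry no expression, and the cell type could not be checked from it. Of 5 adipocyte markers (Adipoq, Plin1, Cidec, Lep and Fabp4), 0 had a summit within 1 kb of an end in any list. As 6.97% of all genes had one in at least 1 list, a count of 0 among 5 genes is near the background.

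OTUD3 belongs to the OTU proteases, a family of deubiquitinases that cut ubiquitin off other proteins. It is not known as a DNA-binding factor. In such an assay, fragments pile up where the tagged protein is crosslinked, and the peak caller compares each pile with a local background. The start of a gene carries its promoter, where transcription factors and RNA polymerase assemble, and the far end is where transcripts are cleaved and polyadenylated. Immediate-early genes, a class described below, are switched on within minutes of a stimulus. They encode transcription factors such as the AP-1 and EGR families, together with feedback inhibitors of the signal.

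To show the DNA next to some of the stronger or recurrent summits at gene starts, the 250 bases before the listed start of 8 genes, chosen after their values were seen, are given 5′ to 3′ in the direction of the gene, from RefSeq on build GRCm38.p6. Klf4, Dusp1, Zfp36 and Stk40 stand for replicate 1, and Tnfsf14 and Rab25, each hit within 100 bp of its start, for replicates 3 and 4. Higher folds at a start were those of Eif5a, H1f1 and Col6a6 in replicate 3 and of Nhsl1 in replicate 4. In replicate 1 the fold of Mrnip at its start, 5.24, was above that of Stk40, 4.98. Junb and Btg2 stand for the immediate-early genes found in 2 lists. Btg2 was hit at its start in each of its lists, replicates 1 and 3. Junb recurred in the same lists at its far end. Its summit at the start, with a fold of 4.27 on 5 fragments, was in replicate 1 only. Capitals mark matches, on either strand, to any of 13 motifs: the GC box GGGCGG, the CRE (cyclic AMP response element) TGACGTCA, the AP-1 site TGANTCA, the E-box CACGTG, the CCAAT box CCAAT, the TATA box TATAAA, the ETS site CCGGAAG, the NRF1 core GCGCATGC, the YY1 core AAGATGGC, the C/EBP core TTGCNNAA, the nuclear receptor half-site AGGTCA, the NF-kB site GGAATTTCC and the heat shock unit pair GAANNTTC. Matches that overlap or touch run together as 1 block of capitals.
Klf4 (chr4:55532476-55532725, minus strand): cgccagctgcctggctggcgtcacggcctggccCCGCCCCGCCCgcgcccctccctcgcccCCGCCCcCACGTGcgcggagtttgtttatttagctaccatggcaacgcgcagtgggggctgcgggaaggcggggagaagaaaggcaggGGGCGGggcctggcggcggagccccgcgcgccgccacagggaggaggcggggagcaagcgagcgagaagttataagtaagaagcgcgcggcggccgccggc
Dusp1 (chr17:26508473-26508722, minus strand): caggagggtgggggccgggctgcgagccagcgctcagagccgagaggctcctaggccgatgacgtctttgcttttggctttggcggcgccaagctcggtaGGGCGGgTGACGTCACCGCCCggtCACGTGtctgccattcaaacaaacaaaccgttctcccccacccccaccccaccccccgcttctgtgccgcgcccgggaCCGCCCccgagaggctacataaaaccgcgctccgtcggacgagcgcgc
Zfp36 (chr7:28379229-28379478, minus strand): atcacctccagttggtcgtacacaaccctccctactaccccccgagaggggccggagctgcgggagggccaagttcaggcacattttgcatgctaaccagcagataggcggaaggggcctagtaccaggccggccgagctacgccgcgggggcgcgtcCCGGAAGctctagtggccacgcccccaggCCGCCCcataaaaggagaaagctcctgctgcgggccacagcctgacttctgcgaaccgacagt
Junb (chr8:84978749-84978998, minus strand): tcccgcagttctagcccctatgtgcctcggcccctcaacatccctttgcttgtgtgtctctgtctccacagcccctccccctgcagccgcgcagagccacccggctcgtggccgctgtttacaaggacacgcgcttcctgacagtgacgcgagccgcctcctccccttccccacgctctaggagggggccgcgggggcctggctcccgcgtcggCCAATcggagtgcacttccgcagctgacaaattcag
Btg2 (chr1:134079156-134079405, minus strand): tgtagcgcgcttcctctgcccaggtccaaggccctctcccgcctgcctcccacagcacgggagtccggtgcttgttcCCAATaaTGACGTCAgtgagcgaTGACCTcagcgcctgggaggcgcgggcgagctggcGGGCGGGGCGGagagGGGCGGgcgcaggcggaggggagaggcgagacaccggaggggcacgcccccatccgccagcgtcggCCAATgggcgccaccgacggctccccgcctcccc
Stk40 (chr4:126103707-126103956, plus strand): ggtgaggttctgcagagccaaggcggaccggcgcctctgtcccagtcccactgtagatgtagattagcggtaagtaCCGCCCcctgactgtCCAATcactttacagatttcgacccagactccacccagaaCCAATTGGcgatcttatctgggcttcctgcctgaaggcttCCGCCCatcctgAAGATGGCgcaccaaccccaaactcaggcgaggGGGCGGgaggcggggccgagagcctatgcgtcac
Tnfsf14 (chr17:57194182-57194431, minus strand): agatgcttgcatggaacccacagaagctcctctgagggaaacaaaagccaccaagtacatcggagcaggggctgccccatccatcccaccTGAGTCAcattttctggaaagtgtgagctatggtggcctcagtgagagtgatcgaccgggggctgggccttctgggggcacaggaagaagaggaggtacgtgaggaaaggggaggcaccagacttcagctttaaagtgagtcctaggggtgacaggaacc
Rab25 (chr3:88548280-88548529, minus strand): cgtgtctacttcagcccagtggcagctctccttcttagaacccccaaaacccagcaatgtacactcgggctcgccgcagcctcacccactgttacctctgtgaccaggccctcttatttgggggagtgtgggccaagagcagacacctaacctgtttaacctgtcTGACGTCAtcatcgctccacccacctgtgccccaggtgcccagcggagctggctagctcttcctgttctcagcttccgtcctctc

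The Klf4 window held 4 GC boxes and 1 E-box, and the Dusp1 window held 1 CRE, 3 GC boxes and 1 E-box. A CRE also stood in the windows of Btg2 and Rab25, while the Tnfsf14 window held 1 AP-1 site. The Zfp36 window held 1 GC box and 1 ETS site, and the Junb window held 1 CCAAT box. GC content was 74.0% for Klf4, 73.2% for Btg2 and 68.4% for Dusp1, against 56.0% for Tnfsf14 and 58.4% for Rab25. The stronger summit of Stk40 and the summits of Tnfsf14 and Rab25 fell inside the printed windows. The weaker summit of Stk40 and the start summits of the other genes lay downstream of their windows, inside the gene. A match is a run of letters, not a site of binding.

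Gene ends held a small share of each list, and the share differed between lists. It was 6.06% in replicate 1 (95% Wilson interval 5.64 to 6.50), 4.12% in replicate 3 (3.66 to 4.63) and 3.02% in replicate 4 (2.74 to 3.32), with a mean of 4.40% ± 1.54 (SD, n = 3). The intervals cover counting error only, and they did not overlap. The lowest background at any summit was 0.407 fragments in replicate 1, against 1.17 in replicate 3 and 0.839 in replicate 4. The part of this difference in the shares was not tested.

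**Figure D1:**
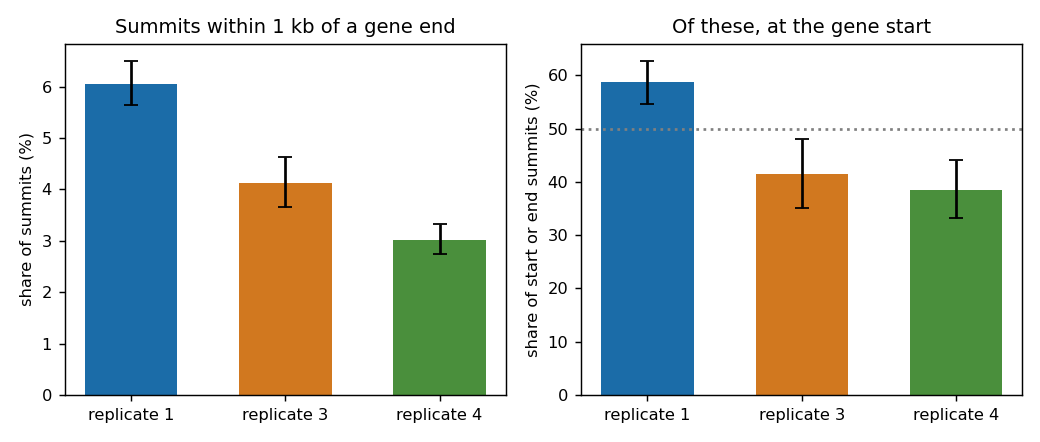
Left, share of summits (%) within 1 kb of a protein-coding gene's end in each of the 3 peak lists. Right, of the summits whose strand is listed, the share (%) at the gene start, counted without summits in reach of both a start and an end, with a dotted line at 50%. Bars are single libraries and error bars are 95% Wilson intervals. Replicate 1 is highest in both panels, at 6.06% and 58.8%.

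Which end was hit also differed between the lists. The direction of transcription was listed for 16457 of the genes. Replicate 1 had 332 summits at starts only, 233 at far ends only, 25 in reach of both and 124 at genes with no listed strand. Replicate 3 had 89, 126, 8 and 45 in the same order, and replicate 4 had 119, 190, 17 and 79. Starts therefore took 58.8% of the summits at one kind of end in replicate 1 (Wilson 54.7 to 62.7), 41.4% in replicate 3 (35.0 to 48.1) and 38.5% in replicate 4 (33.3 to 44.0). The mean was 46.2% ± 11 (SD, n = 3). The mean departure from 50% was -3.78 percentage points (exact sign-flip permutation test, two-sided, p = 0.75, where 3 libraries cannot go below 0.25).

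The position relative to the start separated replicate 1 from the other lists. Within 250 bp of starts, replicate 1 had 44.5 summits per 250 bp (exact Poisson interval 35.7 to 54.8), against 33.3 per 250 bp in the flanks 2 to 3 kb away, a ratio of 1.34. Replicate 3 had 8.0 (4.57 to 13.0) against 18.0, a ratio of 0.444. Replicate 4 had 16.0 (10.9 to 22.6) against 25.9, a ratio of 0.618. The interval at starts overlapped that of the flanks in replicate 1 (29.4 to 37.5) and, barely, in replicate 4 (22.5 to 29.7), and lay below it in replicate 3 (15.2 to 21.2). The densest bin of replicate 1 lay 500 to 750 bp downstream of the start, with 65 summits. At far ends the ratio was below 1 in every list, at 0.627, 0.835 and 0.857 in replicates 1, 3 and 4. The interval there lay below that of the flanks in replicate 1 alone (19.4 to 34.1 against 37.2 to 46.2). The intervals overlapped in replicate 3 (11.4 to 23.2 and 16.8 to 23.1) and in replicate 4 (17.7 to 31.8 and 24.5 to 31.9).

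**Figure D2:**
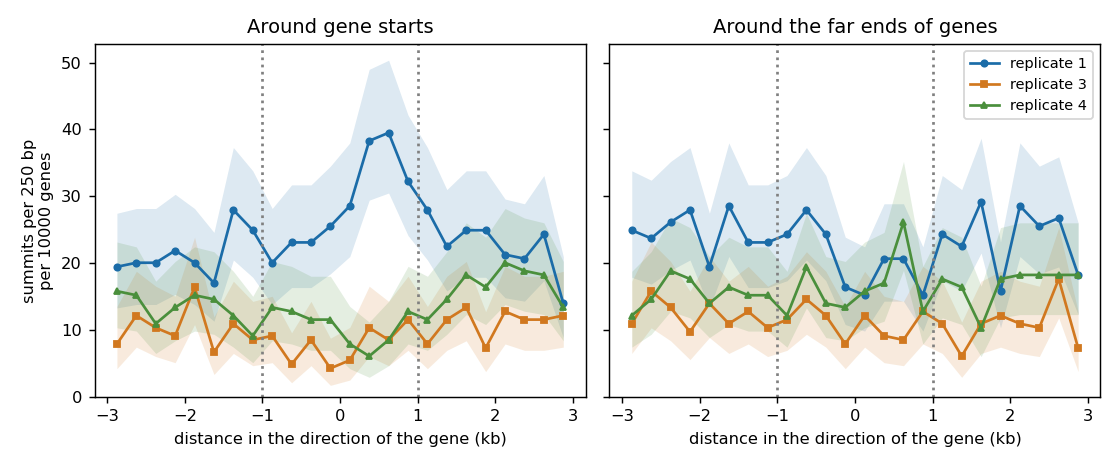
Summits per 250 bp bin and per 10000 genes (y axis) by distance in the direction of the gene in kb (x axis), around starts (left) and far ends (right), for the genes with a listed strand. Lines are the 3 libraries, shaded bands are exact Poisson intervals at 95%, and dotted lines mark the 1 kb window. The highest bin of replicate 1 lies 500 to 750 bp downstream of the start and holds 65 summits, and around starts the highest bins of the other lists lie outside the dotted lines.

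Replicates 1 and 3 had more summits after starts than before them, and replicate 4 had fewer. Counts in the 1 kb before and the 1 kb after starts were 151 and 228 in replicate 1. They were 44 and 59 in replicate 3, and 81 and 58 in replicate 4. At far ends the counts inside and beyond the gene were 153 and 118 in replicate 1, 76 and 70 in replicate 3, and 97 and 118 in replicate 4. The summit lay inside a gene it was assigned to for 62.2% of the gene-end summits in replicate 1, 57.5% in replicate 3 and 45.4% in replicate 4.

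Signal at gene ends was low, on a handful of fragments per summit. The caller's fold enrichment, a ratio of fragments to local background with 1 added to each, had a median of 3.24, 3.00 and 2.99 at gene ends and 3.20, 3.00 and 3.02 at all other summits of replicates 1, 3 and 4. The mean of the 3 differences of medians was 0.00458 (exact sign-flip permutation test, two-sided, p = 1). Folds at gene ends ran from 2.41 to 5.83 in replicate 1, from 1.82 to 4.52 in replicate 3 and from 2.39 to 4.89 in replicate 4. The median summit rested on 4, 6 and 5 fragments, the same medians as at other summits. Median widths were 245, 282 and 243 bp at gene ends against 245, 266 and 240 bp elsewhere (mean difference 6.33 bp, exact sign-flip permutation p = 0.5). Summits at starts and at far ends had median folds of 3.28 and 3.20 in replicate 1, 3.02 and 3.00 in replicate 3, and 3.04 and 2.89 in replicate 4.

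Most gene-end peaks had a high false discovery rate by the caller's own estimate. A q above 0.5 was given to 80.8%, 91.4% and 93.1% of them in replicates 1, 3 and 4. This was not particular to gene ends. The median q was 0.651, 0.950 and 0.875 at gene ends, and the same at the other summits of each list. A q below 0.05 was reached by 5 of 714 gene-end peaks in replicate 1 (0.70%), against 0.331% of all peaks of that list. It was reached by 0 of 268 in replicate 3, against 0.323% of all peaks, and by 0 of 405 in replicate 4, against 0.432%. The lowest q at a gene end was 0.00824, 0.150 and 0.0506. With 5 calls in 1 list, the share rests on few peaks and on 1 library.

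All 5 of those peaks were in replicate 1, and 3 lay just inside an immediate-early or feedback gene. Klf4 encodes a zinc finger transcription factor that is induced early in adipocyte differentiation. Its summit, in chr4:55531901-55532175, lay 438 bp downstream of the start with a fold of 5.83 on 8 fragments (q = 0.00824). Dusp1 encodes a phosphatase that switches off MAP kinases, and its summit in chr17:26507734-26508312 lay 374 bp downstream of the start with a fold of 5.69 on 7 fragments (q = 0.0132). Zfp36 encodes tristetraprolin, which destabilises AU-rich messenger RNAs of cytokines, and its summit in chr7:28379070-28379314 lay 57 bp downstream of the start with a fold of 5.38 on 7 fragments (q = 0.0294). The other two peaks lay at Zfand5, a zinc finger protein of the AN1 type that stimulates the proteasome, and at Mrnip, which interacts with the MRN complex of DNA repair. Zfand5 was hit 846 bp before its far end in chr19:21285848-21286155 (fold 5.69, 7 fragments, q = 0.0132), and Mrnip 785 bp downstream of its start in chr11:50175463-50175875 (fold 5.24, 7 fragments, q = 0.0458). None of these 5 genes had a gene-end summit in replicates 3 or 4.

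The next strongest summits of replicate 1 belonged to A630001G21Rik, at a fold of 5.05 on 7 fragments (q = 0.0853), and to a group of 5 genes tied at a fold of 4.98 on 6 fragments (q = 0.0977), namely Cplx3, Junb, Pcnx, Sfn and Stk40. Stk40 encodes a serine/threonine pseudokinase that recruits substrates to the COP1 ubiquitin ligase. It had summits on both sides of its start, 125 bp upstream in chr4:126103578-126104193 and 630 bp downstream with a fold of 4.27 on 5 fragments. Most of the genes with several summits were in replicate 1. There 21 of 759 genes had at least 2, against 1 of 292 in replicate 3 (Egr1) and 3 of 431 in replicate 4. Replicate 1 also had the most gene-end summits, 714 against 268 and 405, and the part of this in the counts was not tested. The genes with at least 3 were Junb with 4, Zfp36 with 3 and Rela, the NF-kB subunit p65, with 3.

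In replicate 3 the strongest gene-end summits fell on other genes, at lower folds and more fragments. Eif5a, the hypusine-bearing translation factor, led with a fold of 4.52 on 9 fragments (q = 0.150), 918 bp downstream of its start in chr11:69920827-69921207. H1f1, a linker histone gene on chromosome 13, followed with a fold of 4.31 on 10 fragments (q = 0.167). Col6a6 (a collagen VI chain), Hdac2 (a histone deacetylase), Mex3c (an RNA-binding ubiquitin ligase) and Slc39a14 (a zinc and iron importer) were tied at a fold of 4.14 on 8 fragments (q = 0.459). Tnfsf14, which encodes the cytokine LIGHT, had a fold of 4.12 on 10 fragments, 96 bp upstream of its start in chr17:57194137-57194387 (q = 0.251). A single summit in chr11:69667022-69667272 lay in reach of both Eif4a1, an RNA helicase of translation initiation, and Cd68, a macrophage marker (fold 4.10, 8 fragments, q = 0.459), so it does not tell the genes apart.

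Replicate 4 led with a different set. Nhsl1, an actin-regulatory protein of the Nance-Horan family, had a fold of 4.89 on 8 fragments (q = 0.0506), 226 bp upstream of its start in chr10:18317288-18317629. Angptl4 encodes a fasting-induced inhibitor of lipoprotein lipase that adipose tissue secretes. Its summit in chr17:33781357-33781591 lay 63 bp inside an annotated end, with a fold of 4.60 on 9 fragments (q = 0.0645). Mrpl14, of the mitochondrial ribosome, and Rab25, an epithelial GTPase of recycling endosomes, each had a fold of 4.49 on 8 fragments (q = 0.135), for Rab25 47 bp upstream of its start in chr3:88548142-88548471. Actb (beta-actin), Kcnab1 (a potassium channel subunit), the olfactory receptor gene Olfr1364 and Scgb2b13-ps were tied at a fold of 4.35 on 7 fragments (q = 0.262). Angptl4 was the only 1 of these 8 genes with a summit in another list, a fold of 2.84 on 3 fragments at its opposite end in replicate 1 (q = 0.992).

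Few genes recurred between lists, and 0 recurred in all 3. A gene-end summit was present at 759 genes in replicate 1 (3.67% of all genes), 292 in replicate 3 (1.41%) and 431 in replicate 4 (2.09%). Together these were 1440 genes (6.97%), and 42 of them (0.203% of all genes) appeared in 2 lists. Replicates 1 and 3 shared 19 genes, which were 2.50% of the genes of replicate 1 and 6.51% of those of replicate 3, where the other list held 1.41% and 3.67% of all genes. Replicates 1 and 4 shared 18 genes, or 2.37% and 4.18%, where the other list held 2.09% and 3.67%. Replicates 3 and 4 shared 5 genes, or 1.71% and 1.16%, where the other list held 2.09% and 1.41%. Sharing was thus above the background for replicates 1 and 3. It was near the background for replicates 1 and 4 and, on 5 genes, for replicates 3 and 4. None of these differences was tested.

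Among the 42 genes, only Btg2 and Ptger2 were hit at the start in both lists, while 10 were hit at the far end in both and 14 had no listed strand. Btg2 encodes an antiproliferative immediate-early protein that promotes deadenylation. Its summits lay 472 bp downstream of the start in replicate 1 (fold 2.79, 4 fragments) and 902 bp downstream in replicate 3 (fold 2.998, 7 fragments). Ptger2 encodes the prostaglandin E2 receptor EP2, and its summits lay 295 bp downstream in replicate 1 (fold 2.84, 3 fragments) and 672 bp downstream in replicate 3 (fold 2.43, 5 fragments). In 19 of the 42 genes the summits lay within 1 kb of each other. Folds of the 42 ran from 2.41 to 4.98 on 3 to 9 fragments, and the lowest q among them was 0.0645, at Angptl4.

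**Figure D3:**
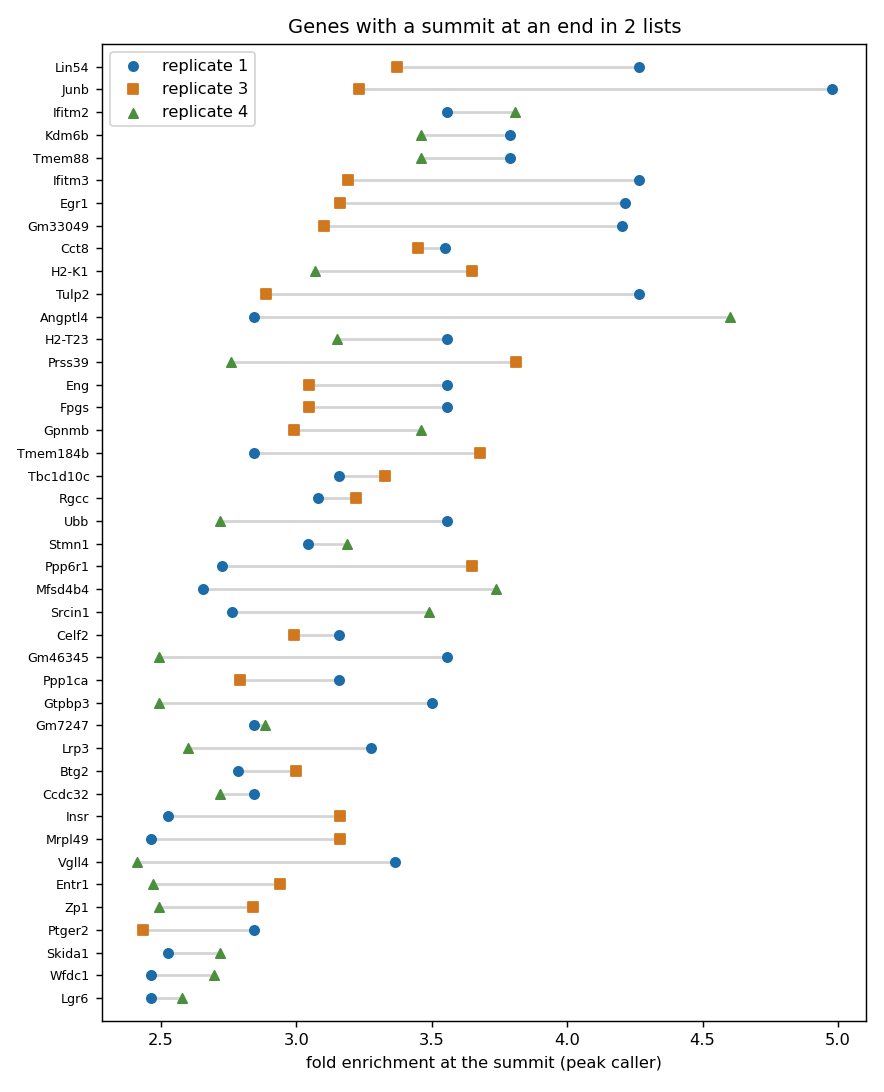
Caller's fold enrichment at the gene-end summit (x axis) of the 42 genes found in 2 lists, ordered by their mean within-list percentile of fold (y axis, 1 gene a row). Points are single libraries, the grey line joins the values of a gene, and a gene with several summits is shown by the strongest. Folds range from 2.41 to 4.98, and no gene has a point in all 3 libraries.

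Overlapping peaks were rarer than shared genes: 7 gene-end regions, at 8 genes, held peaks of 2 lists that overlapped by at least 1 bp. Junb encodes a subunit of the AP-1 transcription factor. Its region, chr8:84977360-84978110, lies inside the gene, with a fold of 4.98 on 6 fragments in replicate 1 (q = 0.0977) and of 3.23 on 9 fragments in replicate 3 (q = 0.745), the summits being 108 bp apart. A region in chr11:69397637-69398348 was in reach of Tmem88, an inhibitor of Wnt signalling, and of Kdm6b, a demethylase of histone H3 lysine 27, and both of its summits lay inside Tmem88. Its folds were 3.79 on 5 fragments in replicate 1 and 3.46 on 6 in replicate 4, with summits 383 bp apart. Ifitm3, an interferon-induced membrane protein that blocks viral entry, was hit past its far end in chr7:141008998-141009388, with a fold of 4.27 on 5 fragments in replicate 1 and 3.19 on 7 in replicate 3.

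The region of H2-K1, a heavy chain of MHC class I, was in replicates 3 and 4. It lay past the far end in chr17:33995544-33995820, with folds of 3.65 on 8 fragments and 3.07 on 5 and summits 27 bp apart. Insr, the insulin receptor, had summits 18 bp apart near an annotated end in chr8:3151579-3151840, with folds of 2.53 on 3 fragments in replicate 1 and 3.16 on 6 in replicate 3. Tulp2, a tubby-like protein gene, and Mfsd4b4, of a transporter family, gave the other two regions, with folds of 4.27 and 2.89 in replicates 1 and 3 and of 2.66 and 3.74 in replicates 1 and 4. Summits of the 7 regions lay 18 to 496 bp apart, and 2 pairs lay within 100 bp. Counting any peak of another list, 1.12%, 2.24% and 0.988% of the gene-end peaks of replicates 1, 3 and 4 were overlapped, against 0.840%, 1.203% and 0.722% of the other peaks.

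Among gene classes, immediate-early and feedback genes had the highest share hit within 1 kb in replicates 1 and 3 of the functional lists examined, short lists of cell type markers aside, and no hit in replicate 4. Of 51 genes, 17 had a gene-end summit in replicate 1 (33.3%, against 3.67% of all genes), 7 in replicate 3 (13.7%, against 1.41%) and 0 in replicate 4 (against 2.09%). A count of 0 in a list of this size is near the background. The list was written with the summits at Klf4, Dusp1, Zfp36 and Junb already known, and without these 4 genes the counts were 13, 6 and 0 of 47. Its genes are short, with a median length of 5.34 kb against 17.5 kb for all genes. In replicate 1 the 17 genes carried 24 summits, at folds from 2.53 to 5.83 on 3 to 8 fragments. Of these, 13 lay at starts, and all 13 were downstream of the start, inside the gene. In replicate 3 the 7 genes carried 8 summits, at folds from 2.75 to 3.23 on 6 to 9 fragments, and 3 lay at starts, of which 1 was downstream.

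The class spans factors and their brakes. Hits of replicate 1 among transcription factors were Atf3, Egr1, Jun, Junb, Jund, Klf4, Klf6 and Klf9. Hits among feedback and other regulators were Btg2, Dusp1, Irs2, Nfkbia, Nfkbiz, Per1, Trib1, Zfp36 and Zfp36l2, of which Nfkbia encodes the inhibitor that holds NF-kB in the cytoplasm. Replicate 3 had Egr1, Egr2, Junb and Maff among the factors and Btg2, Ier2 and Socs3, a brake on cytokine receptors, among the others. Junb, Btg2 and Egr1 were in both lists. Egr1, a zinc finger factor induced by growth signals, had a fold of 4.21 on 6 fragments in replicate 1 (q = 0.342) and 2 summits of 3.16 and 3.13 on 6 fragments each in replicate 3 (q = 0.950). Its strongest summits lay 2085 bp apart in a gene of 3750 bp.

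Replicate 4 had immediate-early hits in a wider window alone, its counts of 0 in the smaller windows being near the background. Within 500 bp, 10, 2 and 0 of the 51 genes had a summit in replicates 1, 3 and 4, where 1.83%, 0.673% and 0.973% of all genes did. In that window the share in replicate 3 (3.92%) was below that of interferon and MHC class I genes (10.3%), so the order of the lists within 1 kb was lost there. Within 3 kb, 27, 15 and 7 did, or 52.9%, 29.4% and 13.7%, where 9.46%, 4.51% and 6.51% of all genes did.

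**Figure D4:**
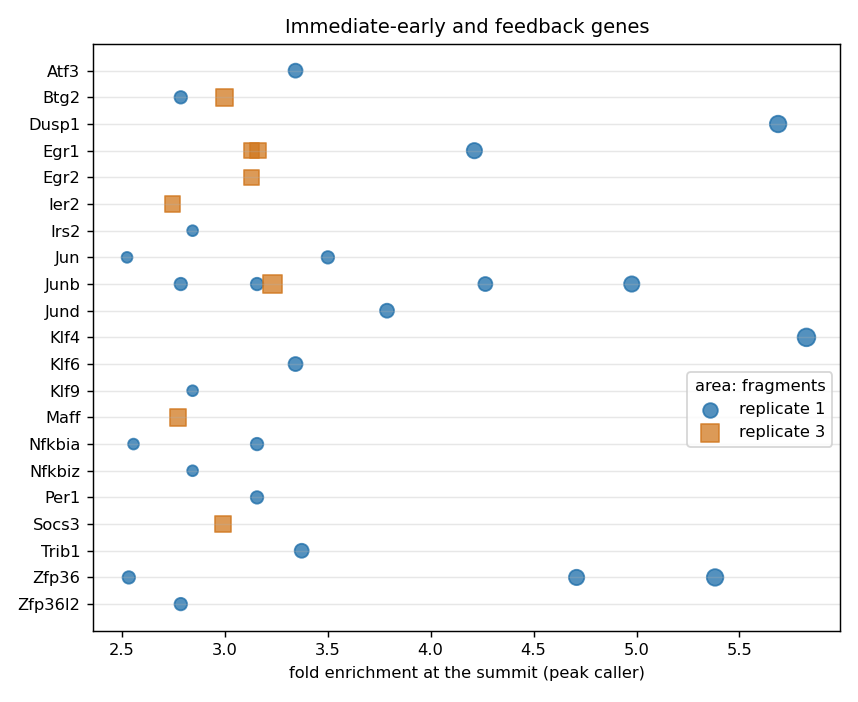
Caller's fold enrichment (x axis) of every gene-end summit at the 21 immediate-early and feedback genes with a summit (y axis, 1 gene a row); point area is proportional to the fragments at the summit. Circles are replicate 1 and squares replicate 3, and replicate 4 had 0 such summits. Folds of replicate 1 reach 5.83, and those of replicate 3 stay at or below 3.23.

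NF-kB and inflammatory genes were hit mostly in replicate 1. There 9 of 34 had a summit (26.5%, against 3.67% of all genes). Replicate 3 had 0 (against 1.41%) and replicate 4 had 1 (2.94%, against 2.09%), both near the background. In replicate 4, Cxcl10, a chemokine induced by interferon, had a fold of 3.26 on 5 fragments. Tnf, the gene of tumour necrosis factor, was hit 648 bp downstream of its start with a fold of 4.27 on 5 fragments (q = 0.342). Rela had summits of 3.08, 3.98 and 3.20, on 4, 5 and 4 fragments. The other genes hit were the chemokines Ccl2 and Cxcl1, the receptor Tlr2 with its adaptor Myd88, Nfkb2, Nfkbia and Nfkbiz. Both Nfkbia and Nfkbiz also stand in the immediate-early list.

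Interferon and MHC class I genes were hit in all 3 libraries, and theirs was the highest share of the functional lists in replicate 4, though no single gene was hit in all 3. Of 29 genes, 4 were hit in replicate 1 (13.8%, against 3.67% of all genes), 3 in replicate 3 (10.3%, against 1.41%) and 5 in replicate 4 (17.2%, against 2.09%), and 4 genes were in 2 lists. H2-K1 and Ifitm3 were those with overlapping peaks. Ifitm2, a paralog of Ifitm3 whose reads may be split between copies, was hit 1000 bp inside its far end in replicate 1 (fold 3.55, 4 fragments) and 668 bp upstream of its start in replicate 4 (fold 3.81, 6 fragments). H2-T23, a nonclassical MHC class I gene, was hit 685 bp downstream of its start in replicate 1 (fold 3.55, 4 fragments) and near its far end in replicate 4 (fold 3.15, 5 fragments). B2m, the light chain of MHC class I, was hit in replicate 4, 198 bp downstream of its start (fold 3.26, 5 fragments). The lowest q in the list was 0.342.

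Among transcription factor classes, 6 of 47 nuclear receptors were hit in replicate 1 (12.8%, against 3.67% of all genes) and 0 in replicates 3 and 4, where 1.41% and 2.09% of all genes were hit, so that a count of 0 in a list of this size is near the background. They were Pparg, the master regulator of adipocyte differentiation, the retinoic acid receptors Rara and Rarg, the thyroid hormone receptor Thra, Nr1d1 and Nr2f2. Their folds ran from 2.53 to 3.55 on 3 to 5 fragments, and Pparg was hit 816 bp past its far end (fold 3.34, 5 fragments). Of 47 bZIP factors, the leucine zipper family of AP-1, ATF and C/EBP, 6 were hit in replicate 1 (12.8%), 4 in replicate 3 (8.51%) and 2 in replicate 4 (4.26%). The shares in replicates 1 and 3 were above that of all genes, and that in replicate 4, on 2 genes, was near the background. Junb was the 1 gene in 2 lists. Atf3, Jun, Junb and Jund of replicate 1 and Junb and Maff of replicate 3 also stand in the immediate-early list. Cebpb, which starts the adipogenic cascade, was hit in replicate 3, 768 bp upstream of its start (fold 2.37, 5 fragments). Of 19 circadian clock genes, 3 were hit in replicate 1 (Bhlhe41, Nr1d1 and Per1, 15.8%) and 0 in the other lists, again near their background. Per1 also stands in the immediate-early list, and Nr1d1 among the nuclear receptors.

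Metabolic genes were hit on counts of 0 to 4 genes per list and library, where 3.67%, 1.41% and 2.09% of all genes were hit in replicates 1, 3 and 4. Of 28 genes of fatty acid and triglyceride synthesis, 2 were hit in replicate 1 (7.14%), the cholesterol exporter Abca1 and the glycerol-phosphate acyltransferase Gpam, both at a fold of 3.36 on 4 fragments and both at the far end. Of 32 genes of lipolysis and fatty acid oxidation, 1 was hit in that replicate (3.13%), Adrb3, the beta-3 adrenergic receptor of fat cells (fold 2.79, 4 fragments). Neither list had a hit in replicates 3 and 4. Of 39 genes of glucose metabolism and the TCA cycle, Gapdh and Suclg1 were hit in replicate 1, Sdha and Sucla2 in replicate 3 (5.13% each) and 0 in replicate 4. Of 58 genes of oxidative phosphorylation, 1, 4 and 2 were hit in replicates 1, 3 and 4 (1.72%, 6.90% and 3.45%), with the share in replicate 3 above that of all genes, and no gene was in 2 lists. Of 34 insulin and adipokine genes, 3, 2 and 1 were hit (8.82%, 5.88% and 2.94%), with Insr in 2 lists and Adipor2, an adiponectin receptor, in replicate 4 (fold 2.88, 6 fragments).

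Ubiquitin genes and deubiquitinases, the enzyme class of OTUD3 itself, were hit at 3, 1 and 5 of 58 genes in replicates 1, 3 and 4 (5.17%, 1.72% and 8.62%), where 3.67%, 1.41% and 2.09% of all genes were hit. The shares in replicates 1 and 3 were near the background. Ubb, a polyubiquitin gene, was in 2 lists, 660 bp downstream of its start in replicate 1 (fold 3.55, 4 fragments) and 667 bp past its far end in replicate 4 (fold 2.72, 4 fragments). Uchl5, a proteasome-bound deubiquitinase, had the highest fold of the list, 4.90 on 6 fragments in replicate 1 (q = 0.0977). Otud3 itself had 0 summits at its ends on chromosome 4 in all 3 lists, and no summit came closer to an end than 45.0 kb in replicate 1, 28.3 kb in replicate 3 and 55.5 kb in replicate 4.

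Each of the remaining functional lists had 0 to 4 hits per library, where 3.67%, 1.41% and 2.09% of all genes were hit. Heat shock and chaperone genes were hit at 4, 1 and 0 of 30 (13.3%, 3.33% and 0%), with the chaperonin gene Cct8 in replicates 1 and 3 (folds of 3.55 on 4 fragments and 3.45 on 7). Chromatin regulators were hit at 3, 3 and 1 of 68 (4.41%, 4.41% and 1.47%). Splicing genes were hit at 1, 1 and 4 of 48 (2.08%, 2.08% and 8.33%), with the share in replicate 4 above that of all genes. Translation factors were hit at 3, 2 and 1 of 32 (9.38%, 6.25% and 3.13%), and extracellular matrix and actin genes at 0, 0 and 2 of 34 (5.88% in replicate 4). Among markers of other cell types, 1 of 5 macrophage markers (Cd68, in replicate 3) and 1 of 4 endothelial markers (Tek, in replicate 1) had a summit, and the stromal, mesothelial and lymphocyte markers had 0.

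**Figure D5:**
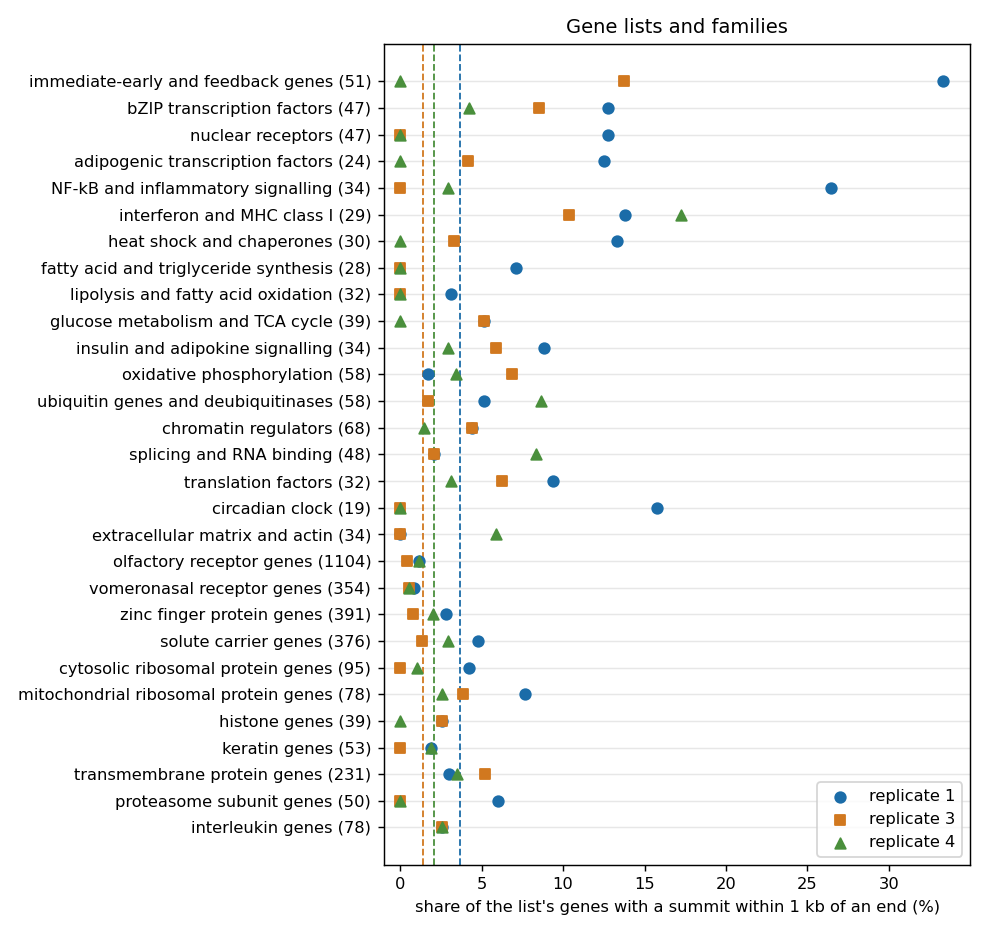
Share (%) of the genes of each list or family with a summit within 1 kb of an end (x axis), in each of the 3 libraries; the number of genes is in brackets, families are matched by symbol, and dashed lines give the share of all genes in the library of the same colour, at 3.67%, 1.41% and 2.09%. Immediate-early genes reach 33.3% in replicate 1, and olfactory receptor genes lie below the line of each library.

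Of the large gene families, the chemosensory receptors lay below the background, and they were not alone in this. Zinc finger protein genes were hit at 11, 3 and 8 of 391 (2.81%, 0.767% and 2.05%), in replicate 4 close to the 2.09% of all genes. Predicted genes with Gm symbols were hit at 14, 10 and 23 of 967 (1.45%, 1.03% and 2.38%), below the background in replicates 1 and 3 only. Olfactory receptor genes, which are silent outside the nose for the most part, were hit at 13, 5 and 13 of 1104 genes (1.18%, 0.453% and 1.18%), below the share of all genes in each list, and 0 were in 2 lists. Vomeronasal receptor genes were hit at 3, 2 and 2 of 354 (0.847%, 0.565% and 0.565%). Reads in these families of close copies may be assigned uncertainly. Solute carrier genes were hit at 18, 5 and 11 of 376 (4.79%, 1.33% and 2.93%), and mitochondrial ribosomal protein genes at 6, 3 and 2 of 78 (7.69%, 3.85% and 2.56%), with Mrpl49 in replicates 1 and 3. The plot of gene lists shows these families, other than the predicted genes, beside the functional ones.

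Gene density around the summits, gene length and the CpG content of promoters were also described. A median of 5, 4 and 4 gene starts lay within 100 kb of gene-end summits in replicates 1, 3 and 4, against 2, 1 and 1 for other summits, a difference that the rule itself favours. Median length of the genes hit was 17.4, 15.9 and 19 kb, against 17.5 kb for all genes. Promoters of 300 bases with a listed start were available for 14811 genes, and 47.6% of them were CpG-rich (GC above 50% and an observed to expected CpG ratio above 0.6). Among genes hit at the start, 64.7% were CpG-rich in replicate 1 (225 of 348), 43.8% in replicate 3 (42 of 96) and 35.3% in replicate 4 (41 of 116). Among genes hit at the far end alone the shares were 56.0%, 53.8% and 58.7%, so the share at starts was above that at far ends in replicate 1 and below it in replicates 3 and 4.

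Motifs were counted in the promoters of genes hit at the start. The GC box stood in 63.2%, 47.9% and 37.1% of the promoters hit at the start in replicates 1, 3 and 4, against 47.8% of all. The CRE, present in the printed windows of Dusp1, Btg2 and Rab25, stood in 4.31%, 4.17% and 1.72% against 2.46%, and rested on 15, 4 and 2 promoters. The E-box stood in 14.1%, 7.29% and 13.8% against 8.09%. The AP-1 site stood in 6.90%, 7.29% and 6.90% against 7.10%. The CCAAT box stood in 39.1%, 42.7% and 34.5% against 39.4%, the ETS site in 13.8%, 12.5% and 13.8% against 12.4%, and the TATA box in 10.3%, 9.38% and 15.5% against 13.9%. The nuclear receptor half-site stood in 16.4%, 19.8% and 9.48% against 14.2%, the C/EBP core in 8.05%, 13.5% and 6.90% against 10.3%, and the YY1 core in 3.74%, 2.08% and 7.76% against 3.27%. The NRF1 core stood in 2.87%, 3.13% and 1.72% against 3.80%, the heat shock unit pair in 5.17%, 8.33% and 6.03% against 7.45%, and the NF-kB site in 0.575%, 0% and 0% against 0.351%. These shares are descriptions with no test.

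The 1 kb limit cut through an even field of summits. Just inside it, 900 to 1000 bp from an end, there were 67, 30 and 29 peaks in replicates 1, 3 and 4, with median folds of 3.37, 3.15 and 2.88. Just outside, at 1000 to 1100 bp, there were 63, 22 and 39, with median folds of 3.24, 2.93 and 3.04.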

How the data were processed

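The data were 3 deposited peak lists, 1 per anti-Flag library and not pooled. The submitters' processing notes name mm10, the trimmer fastp 0.19.11, the aligner BWA 0.7.12 and the peak caller MACS2 2.1.0. Use of the input as a control for calling is not given in the sources here, and the labels name both single-end and paired-end reads of 75 bp. In the deposited lists the authors' peak caller gave every peak an integer score, a ratio (fold over local background) and the −log10 of its p-value and of its q-value, used here only within a list. Largest p-values at gene ends were 0.00473, 0.00487 and 0.00491, so the lists are lenient.

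Where an interval was listed with several summits, that of lowest p was kept, leaving 11871, 6531 and 13496. Read totals are not in the lists. Fragments at a summit were recovered from fold and p with a pseudocount of 1, and a whole number matched within 0.001 on the log10 scale for 100% of peaks in each list. These fragments are the depth behind a peak, and 3 to 19 of them carry a large counting error. Gene ends came from a RefSeq table of GRCm38.p6, the build mm10 names. Strand and promoter sequence came from a RefSeq promoter table, which covered 79.6% of genes. Exons, introns and UTRs were not told apart.

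Members, gene lists and motifs were chosen with earlier results of these data known. Named genes were those with q below 0.05, those with a region of 2 lists, the 8 highest folds in each list with ties broken by the order of the list, genes of each gene list found in 2 lists, and Otud3. Other genes were named after their values were seen. Families were matched by symbol prefix, which can take in an unrelated gene such as Rps6kc1. With 1 group measured, nothing was tested between groups. Libraries were compared with exact sign-flip permutation tests over 3 lists. The alternatives were other windows, chromosomes, summit rules, overlap and p limits, means and leaving out each library. Python 3.11.15, pandas 2.3.3, numpy 2.4.6, scipy 1.17.1 and matplotlib 3.10.9 were used, and the procedures were tested on simulated data.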

Additional observations from a re-analysis of the deposited data

How the results depend on the processing

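Window size moved most counts. With 500 bp the mean share of summits at gene ends was 2.18%, genes in 2 lists numbered 12, regions of 2 lists 4 and peaks with q below 0.05 3. With 3 kb these were 12.2%, 361, 27 and 9. At a −log10 p of at least 3, 23 genes were in 2 lists. With 50% reciprocal overlap there were 3 regions of 2 lists, and with summits within 100 bp there were 2. At a q of at most 1e-05, 0 peaks remained. The difference in fold between gene-end and other peaks changed sign, at -0.0248 with 500 bp, -0.00885 with 3 kb and -0.00642 for means. Leaving out 1 library gave 5 to 19 genes of 2 lists, the lowest without replicate 1, and 1 to 4 regions. It gave a fold difference of -0.0133 (without replicate 1) to 0.0201, and a share at starts minus 50 of -10.0 to 0.0782 percentage points, the latter without replicate 4. All 5 peaks with q below 0.05 came from replicate 1. The cause of these changes was not tested beyond the construction of each alternative. Adding X and Y, keeping every summit or counting interval overlap left the mean share and the genes of 2 lists within 1.5 times the reported values. After seeing the data, 3 alternatives were added: the fold difference without 2 blocks of peaks shared on chromosomes 9 and 2 was 0.00458, and 11, 3 and 0 immediate-early genes had a summit at the listed start. No paired analysis was possible because only 1 group was measured, the input libraries that share the replicate numbers being not analysed here. Exact tests over 3 libraries cannot go below 0.25, and summits of 3 to 10 fragments limit every named value.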

Other observations

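Several secreted or stress-related genes drew more than 1 gene-end summit in replicate 1, and were chosen after their values were seen. Cfd, the adipokine adipsin, had summits 92 bp before and 288 bp past its far end, with folds of 3.20 and 2.79 on 4 fragments each. Ftl1, the ferritin light chain, had summits of 3.41 and 2.81 on 4 fragments each. Sqstm1, the autophagy receptor p62, had summits of 3.41 and 2.79 on 4 fragments each, the weaker of which also lay in reach of Mrnip. The q of these summits was 0.651 or 0.992. Stat3, Qk, H3f3b and Hoxa7 also had 2 gene-end summits in that list. None of the 7 genes was among the 42 genes found in 2 lists.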
